A study of Mus musculus with 3 samples.

Results

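*Sox5*, *Sox6* and *Sox9* encode the transcription factors of the chondrogenic SOX trio. They were chosen by symbol and make up 3 of the 32285 genes counted. Their UMIs (unique molecular identifiers, 1 per captured transcript) were examined in stromal vascular fraction (SVF) cells of inguinal white adipose tissue from mice 4 weeks old. The wild-type library holds cells of mice without a targeted allele, and the *Mgp*-KO library cells of mice in which matrix Gla protein was deleted globally. The *Pd*-KO library holds cells of *Mgp* flox/flox mice carrying the *Pdgfra*-Cre transgene, which is meant to delete *Mgp* in *Pdgfra*-expressing cells and their descendants. Cells of several mice of both sexes were pooled within a library, and lipid-filled adipocytes and CD45-positive immune cells had been removed. The *Pd*-KO cells are set here against wild-type cells, not against floxed littermates without Cre, and no *Pdgfra*-Cre control without the floxed allele was analysed here. Each genotype had 1 library, so no p-value was computed, and all intervals are at 95% and describe counting error alone. Intervals of levels and ratios treat each UMI as independent, so they may be too narrow where UMIs cluster in few cells.

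SOX9 is a SoxE protein with a transactivation domain. It is required for cells to become chondrocytes, and it binds the enhancers of cartilage matrix genes such as *Col2a1* and *Acan*. SOX5 and SOX6 are closely related SoxD proteins without such a domain, which bind next to SOX9 and strengthen its action on those genes. Outside cartilage, SOX9 is known from epithelial progenitors, including those of the mammary gland that lies within the inguinal fat pad, and SoxD proteins are known from glial, muscle and other lineages.

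The 3 genes differ greatly in genomic span (GRCm38, GENCODE M21). *Sox5* (ENSMUSG00000041540, minus strand, chr6:143828425-144781977) spans 953.6 kb, of which 14.4 kb or 1.51% is exonic. *Sox6* (ENSMUSG00000051910, minus strand, chr7:115470872-116038796) spans 567.9 kb, of which 14.8 kb or 2.61% is exonic. *Sox9* (ENSMUSG00000000567, plus strand, chr11:112782224-112787760) spans 5.54 kb, of which 74.7% is exonic. *Sox5* is thus longer than 99.8% and *Sox6* than 99.5% of the genes with an annotated span, whereas *Sox9* is longer than only 31.0%. Other genes are annotated in the same regions: 7 overlap *Sox5*, 2 of them on its strand, and 2 antisense genes overlap *Sox6*, while none overlaps *Sox9*. How strand was treated in counting is not given in the sources used here, so reads of these overlapping transcripts may be uncertain.

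After removal of barcodes with fewer than 2000 UMIs or more than 10% mitochondrial UMIs, the wild-type library kept 10511 cells, *Mgp*-KO 12575 and *Pd*-KO 8819, at medians of 12802, 6445 and 8269 UMIs. Each pair of libraries shared between 35 and 40 cell barcodes, at most 0.42% of the smaller library. The headers name Cell Ranger 4 for the wild-type file and 7.1.0 for both knockout files, so software version and genotype cannot be told apart in any ratio over wild-type. Cell Ranger 7.1.0 counts intronic reads by default and Cell Ranger 4 does not. The setting used for each file is not given in the sources used here, and whether introns were counted alike in the 3 files was not tested. *Mgp* itself stood at 501, 1.90 and 1.21 CPM (UMIs of a gene in 1000000 UMIs of the cells concerned) in adipose progenitors. Values given in threes are in the order wild-type, *Mgp*-KO, *Pd*-KO throughout. In smooth muscle cells and pericytes it stood at 364, 0 and 415 CPM, so that it was near the wild-type level in *Pd*-KO. In endothelial cells (697, 0 and 48.1 CPM), basal cells (504, 1.48 and 19.4 CPM), luminal cells (23.7, 0.199 and 6.03 CPM) and Schwann and neural crest cells (41.2, 0 and 0 CPM) it was below wild-type in *Pd*-KO too. Free RNA, taken from barcodes with very few UMIs, held *Mgp* at 359, 1.27 and 6.28 CPM. In wild-type, luminal cells and Schwann and neural crest cells lay far below free RNA. The *Pd*-KO luminal level was close to that of free RNA in its library. How far free RNA enters the *Mgp* levels of the classes was not tested.

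Cells were gated one by one on marker lists. Adipose progenitors were the largest class, with 7601, 11141 and 7032 cells, and were divided further into interstitial progenitors, *Ccn5* fibroblast-like progenitors, committed preadipocytes, Aregs (adipogenesis-regulatory cells) and *Col18a1* stromal cells. Cells that passed gates of 2 types, which may be doublets, were kept apart (337, 156 and 152 cells), with exceptions for adipocytes and basal cells given under processing. In addition, 201, 213 and 373 cells passed no gate. Chondrocyte markers were nearly absent from the progenitors: the 5 markers *Col2a1*, *Acan*, *Col9a1*, *Cnmd* and *Matn1* together made 2.53, 2.20 and 1.75 CPM, and *Matn1* had no UMI in any library.

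Each member had its highest level in a different class. *Sox5* was highest in smooth muscle cells and pericytes, the contractile cells around vessels, where it stood at 59.0 CPM (53.2 to 65.3) in wild-type, 352 CPM (304 to 405) in *Mgp*-KO and 1087 CPM (1038 to 1138) in *Pd*-KO. In adipose progenitors it stood at 9.12 CPM (8.57 to 9.70), 197 CPM (194 to 200) and 272 CPM (268 to 276). Endothelial cells (0.745, 7.59 and 22.9 CPM) and luminal epithelial cells (1.79, 10.2 and 27.6 CPM) were the lowest of 11 classes in every library. Set against progenitors of the same library, *Sox5* in smooth muscle cells and pericytes was higher by 2.69 on the log2 scale (2.52 to 2.86) in wild-type, 0.84 (0.63 to 1.04) in *Mgp*-KO and 2.00 (1.93 to 2.07) in *Pd*-KO.

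Among the progenitor classes, *Sox5* separated into a higher and a lower set in every library. Committed preadipocytes (10.5, 235 and 255 CPM), interstitial progenitors (9.78, 226 and 295 CPM) and *Ccn5* progenitors (9.0, 217 and 305 CPM) made the higher set. Aregs (4.19, 80.3 and 109 CPM) and *Col18a1* stromal cells (3.89, 75.6 and 139 CPM) made the lower set. Progenitors in none of these classes held 8.79, 164 and 245 CPM, values between the sets. Within the higher set, neighbours in the order did not differ beyond counting error in wild-type and *Mgp*-KO, whereas in *Pd*-KO interstitial progenitors exceeded committed preadipocytes by 0.21 (0.14 to 0.27). The step was taken from the lowest class of the higher set to the highest class of the lower set. It was 1.10 (0.55 to 1.67), 1.44 (1.26 to 1.62) and 0.88 (0.73 to 1.02) on the log2 scale. The step lay between *Ccn5* progenitors and Aregs in wild-type and *Mgp*-KO, and between committed preadipocytes and *Col18a1* stromal cells in *Pd*-KO. Both sets were drawn from these same values, so the intervals do not test the division. *Dpp4* marks interstitial progenitors, and progenitors with a *Dpp4* UMI held *Sox5* at 10.0, 230 and 302 CPM, against 8.43, 150 and 183 CPM in those without.

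**Figure D1:**
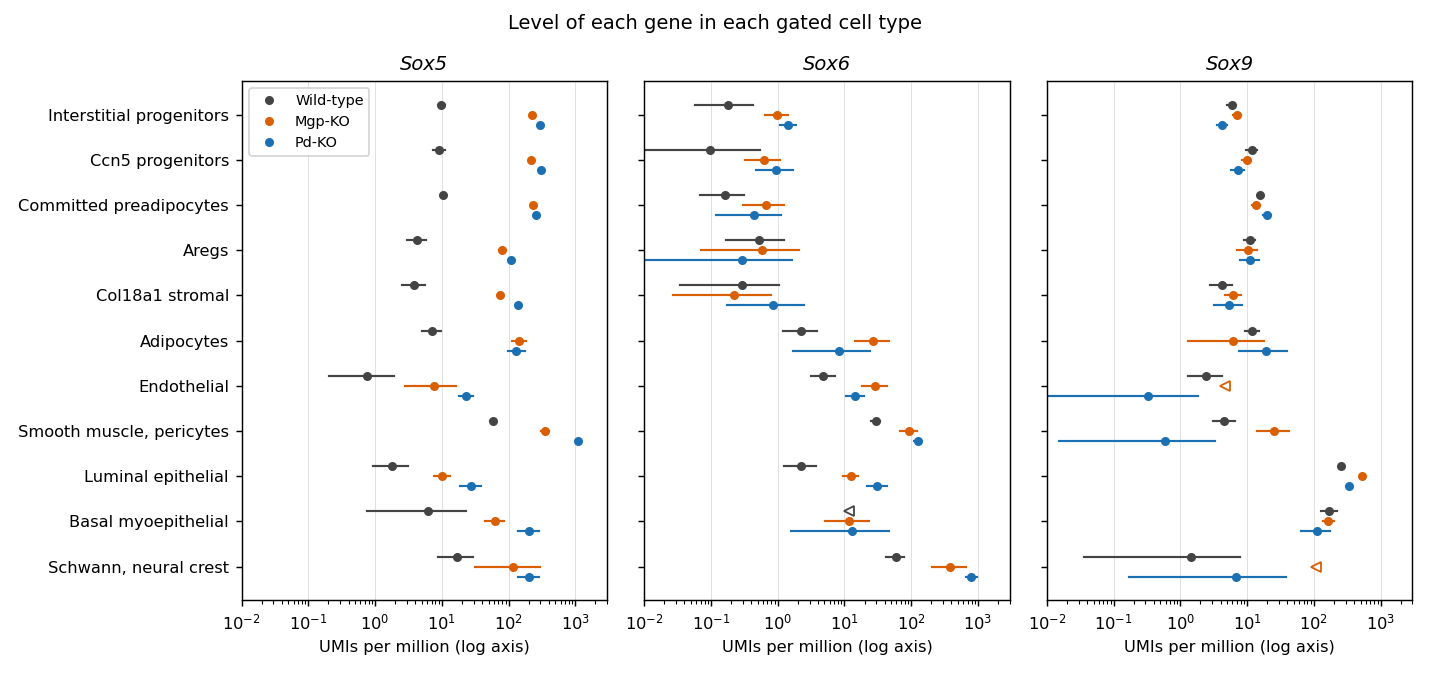
Level of *Sox5*, *Sox6* and *Sox9* in each gated cell type, in CPM on a log axis, for the wild-type (grey), *Mgp*-KO (orange) and *Pd*-KO (blue) library. Points are levels, bars are exact 95% Poisson intervals (cut at the left edge where they reach lower), and an open triangle is the upper limit where no UMI was found. *Sox5* peaks in smooth muscle cells and pericytes (59.0, 352 and 1087 CPM), *Sox6* in Schwann and neural crest cells (58.2, 381 and 797 CPM) and *Sox9* in luminal epithelial cells (256, 525 and 332 CPM).

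*Sox6* was highest in Schwann and neural crest cells, the glia of peripheral nerves, at 58.2 CPM (41.8 to 78.9) in wild-type, 381 CPM (203 to 651) in *Mgp*-KO and 797 CPM (659 to 954) in *Pd*-KO. These values rest on 126, 12 and 43 cells with 41, 13 and 118 *Sox6* UMIs. Smooth muscle cells and pericytes followed at 29.4 CPM (25.3 to 33.9), 92.6 CPM (68.9 to 122) and 128 CPM (111 to 146). Both classes lay above endothelial cells (4.84, 29.1 and 14.6 CPM) and luminal cells (2.23, 12.5 and 31.0 CPM) in every library.

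*Sox6* was close to absent from adipose progenitors. It stood there at 0.207 CPM (0.131 to 0.310), 0.657 CPM (0.491 to 0.862) and 1.18 CPM (0.931 to 1.47), from 23, 52 and 78 UMIs in all. Barcodes with 10 to 100 UMIs, which hold free RNA, carried more, at 26.1, 7.59 and 15.6 CPM. A level this far below free RNA is not read here as expression in progenitors. Relative to progenitors of the same library, *Sox6* was higher in smooth muscle cells and pericytes by 7.15 (6.52 to 7.84), 7.14 (6.55 to 7.72) and 6.76 (6.38 to 7.16) on the log2 scale, and these intervals overlapped.

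*Sox9* had its highest levels in epithelial cells. Luminal epithelial cells, the inner layer of the mammary ducts, held it at 256 CPM (244 to 268) in wild-type, 525 CPM (506 to 546) in *Mgp*-KO and 332 CPM (300 to 367) in *Pd*-KO. Basal myoepithelial cells, the outer contractile layer, held 169 CPM (127 to 221), 166 CPM (136 to 199) and 110 CPM (64.0 to 176), from 30, 116 and 18 cells. Luminal cells made up 2.83%, 4.24% and 1.21% of the cells but carried 48.1%, 68.8% and 35.7% of all *Sox9* UMIs in cells. Adipose progenitors carried 37.0%, 19.2% and 51.2%.

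Adipose progenitors held *Sox9* at a low level of 11.9 CPM (11.3 to 12.6), 9.30 CPM (8.64 to 10.0) and 8.32 CPM (7.64 to 9.04). Free RNA held more in every library, at 20.0, 54.4 and 15.6 CPM, and what part of the progenitor level is free RNA was not tested. Endothelial cells, picked as a class low in *Sox9*, held 2.42, 0 and 0.332 CPM. Committed preadipocytes were the highest of the 5 named progenitor classes in each library (15.8, 13.6 and 20.0 CPM), and interstitial progenitors (5.93, 7.0 and 4.23 CPM) and *Col18a1* stromal cells (4.18, 6.17 and 5.37 CPM) were the lowest 2. Progenitors that fell in none of the 5 classes held 17.0, 12.5 and 36.0 CPM. The preadipocytes exceeded the next class by 0.43 (0.15 to 0.72) on the log2 scale in wild-type and by 0.86 (0.35 to 1.40) in *Pd*-KO, but in *Mgp*-KO by 0.41 with an interval that included 0 (-0.12 to 0.97). *Sox9* was also lower in progenitors with a *Dpp4* UMI than in those without in all libraries (8.83 against 14.2 CPM, 8.37 against 10.7 CPM and 5.29 against 17.3 CPM), which is the reverse of the *Sox5* order, itself within overlapping intervals in wild-type. After thinning the shares were 1.68% against 2.96%, 1.42% against 1.98% and 0.869% against 3.18%. The intervals overlapped in *Mgp*-KO (1.14 to 1.75% and 1.61 to 2.41%). The part of cell depth in this split was not tested.

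Detection per cell was compared after each cell had been thinned at random to 2000 UMIs, since the libraries differ in depth. A *Sox5* UMI was then found in 1.86% of progenitors in wild-type (1.56 to 2.18%), 25% in *Mgp*-KO (24.2 to 25.8%) and 30.8% in *Pd*-KO (29.8 to 31.9%). In smooth muscle cells and pericytes the shares were 9.59% (7.75 to 11.7%), 38.9% (31.1 to 47.2%) and 72.6% (67.8 to 76.9%). The shares in endothelial cells, taken as a class low in *Sox5*, were 0.273%, 0.467% and 2.87% at median depths of 6068.5, 3230.5 and 3886 UMIs, against medians of 14071, 6481 and 9082.5 UMIs in progenitors. Thinned shares of progenitors exceeded these in each library. Because endothelial cells were picked for their low *Sox5*, this comparison cannot show how much of the progenitor signal is free RNA. Barcodes holding free RNA carried *Sox5* at 11.3, 123 and 292 CPM, beside 9.12, 197 and 272 CPM in progenitors, so that free RNA was not lower than cells in wild-type and *Pd*-KO.

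For *Sox9*, luminal cells that kept a UMI after thinning made 30.6% (25.4 to 36.2%) in wild-type, 51.4% (47.1 to 55.7%) in *Mgp*-KO and 35.5% (26.5 to 45.4%) in *Pd*-KO. Without thinning the luminal shares were 80.5%, 82.6% and 75.7%. Progenitors with a *Sox9* UMI made 2.43% (2.10 to 2.81%), 1.67% (1.44 to 1.92%) and 1.59% (1.31 to 1.91%) after thinning, while endothelial cells made 0.410%, 0 and 0.151%. The 0 of 214 *Mgp*-KO endothelial cells allows a share of up to 1.40%. A *Sox6* UMI was kept in 14.3%, 33.3% and 58.1% of Schwann and neural crest cells and in 4.96%, 13.4% and 14.9% of smooth muscle cells and pericytes, but in only 0.0789%, 0.153% and 0.185% of progenitors.

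**Figure D2:**
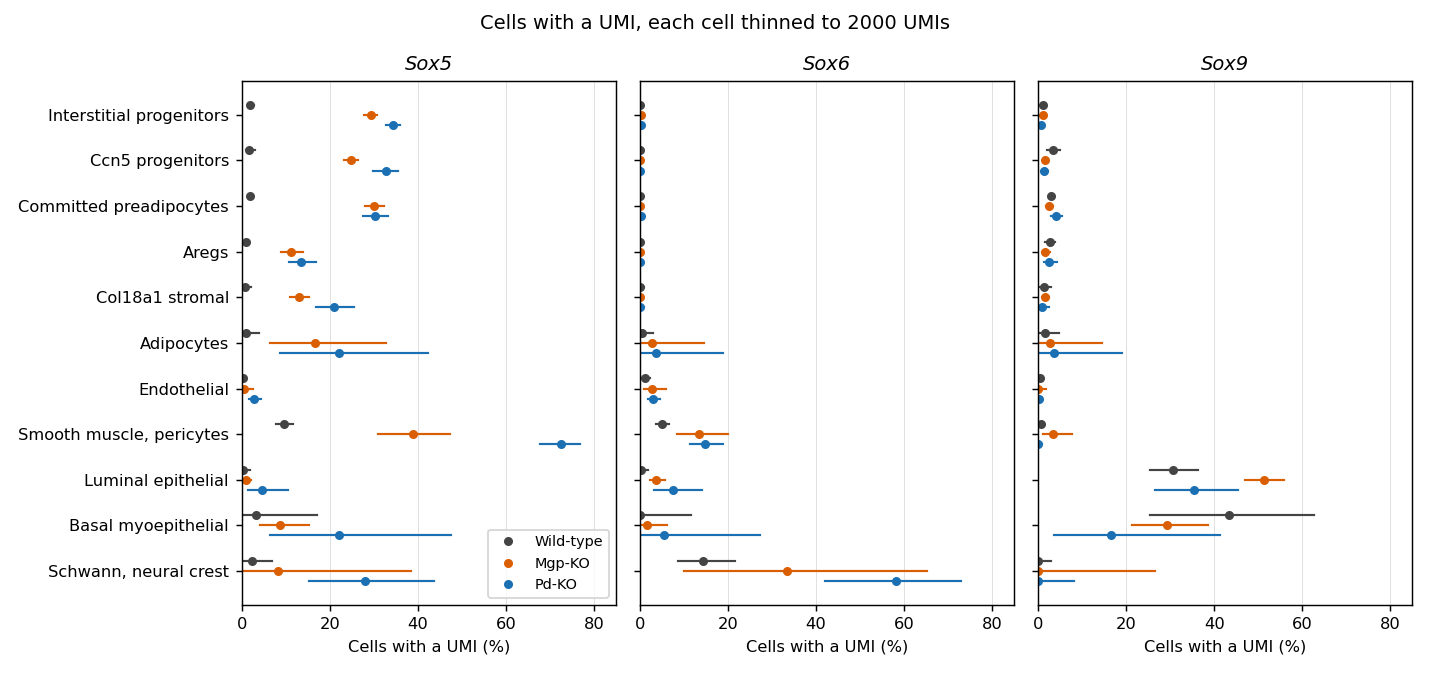
Share of cells with a UMI of each gene after each cell was thinned to 2000 UMIs, in percent, by gated cell type, for the wild-type (grey), *Mgp*-KO (orange) and *Pd*-KO (blue) library. Bars are exact 95% binomial intervals. *Sox5* is found in 1.86%, 25% and 30.8% of progenitors as a whole and in 9.59%, 38.9% and 72.6% of smooth muscle cells and pericytes, and *Sox9* in 30.6%, 51.4% and 35.5% of luminal cells.

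The number of *Sox5* UMIs per cell was counted as well. Unthinned progenitors without a *Sox5* UMI made 89.0% in wild-type, 51.5% in *Mgp*-KO and 39.8% in *Pd*-KO, and 0.382%, 19.8% and 34.5% had at least 3. The 1% of progenitors with most *Sox5* UMIs held 18.8%, 9.94% and 9.01% of them. *Sox9* was spread over fewer cells: the top 1% of progenitors held 30.8%, 49.3% and 37.7% of its UMIs. In the wild-type library the *Sox5* level hardly varied with the depth of the cell (between 8.76 and 13.3 CPM over 4 depth ranges), whereas in *Mgp*-KO it was 106 CPM in cells with 2000 to 5000 UMIs and between 210 and 265 CPM in deeper cells. In *Pd*-KO it was 260, 210, 307 and 386 CPM from the shallowest to the deepest range. Over the same ranges *Sox9* stood at 22.7, 17.8, 10.1 and 13.1 CPM in wild-type progenitors. It stood at 9.19, 9.40, 9.43 and 4.73 CPM in *Mgp*-KO and at 12.9, 9.74, 6.74 and 8.97 CPM in *Pd*-KO.

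Between libraries, *Sox5* in progenitors was higher in *Mgp*-KO than in wild-type by 4.43 on the log2 scale (4.34 to 4.53), a 21.6-fold difference, and in *Pd*-KO by 4.90 (4.81 to 4.99), a 29.8-fold difference. *Pd*-KO exceeded *Mgp*-KO, which has the same software version, by 0.46 (0.43 to 0.50). Every gated class pointed the same way against wild-type: *Sox5* was higher in 11 of 11 classes in *Mgp*-KO, by 2.51 to 4.59, and in 11 of 11 in *Pd*-KO, by 3.57 to 5.16, with no interval including 0. In *Mgp*-KO Schwann and neural crest cells, however, all *Sox5* UMIs lay in 1 of 12 cells. The interval of that class treats each UMI as independent and may be too narrow. Free RNA, at 11.3, 123 and 292 CPM, was also higher in both knockouts. Endothelial and luminal cells held *Sox5* far below these free RNA levels. How far free RNA enters the class ratios was not tested. *Pd*-KO over *Mgp*-KO was higher in 9 of 11 classes, and the intervals of adipocytes (-0.15, -0.71 to 0.40) and of Schwann and neural crest cells (0.79, -0.71 to 2.76) included 0.

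Long genes as a group differed between the wild-type library and both others. In progenitors the median log2 ratio rose with genomic span from -0.15 for genes under 10 kb to 2.64 for those of 300 kb and more in *Mgp*-KO over wild-type, and from -0.26 to 2.74 in *Pd*-KO over wild-type. In *Pd*-KO over *Mgp*-KO the corresponding medians were -0.09 and 0.22. Among the 200 genes nearest to *Sox5* in span, the median was 2.90 in *Mgp*-KO and 3.01 in *Pd*-KO over wild-type, with 32 and 23 of the 200 above *Sox5*. *Sox5* thus stood 1.53 and 1.88 above the median of genes of its own span, and what part of its ratio comes from the genotype and what part from the software version cannot be told apart. Across all 14172 and 14016 genes with at least 100 UMIs over both libraries, 17.7% were at least 2-fold higher and 3.37% at least 2-fold lower in *Mgp*-KO over wild-type, and the shares were 20.6% and 5.98% for *Pd*-KO. *Sox5* was among the genes at least 2-fold higher in both, and *Sox9* in neither. Over wild-type, *Sox6* passed the filter in *Pd*-KO alone, through its 78 UMIs there beside 23 in wild-type. Its ratio is not counted as a call, since its progenitor level lay far below that of free RNA. In *Pd*-KO over *Mgp*-KO, 2.61% of 14046 genes were at least 2-fold higher and 4.41% lower, and none of the 3 members was among them.

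**Figure D3:**
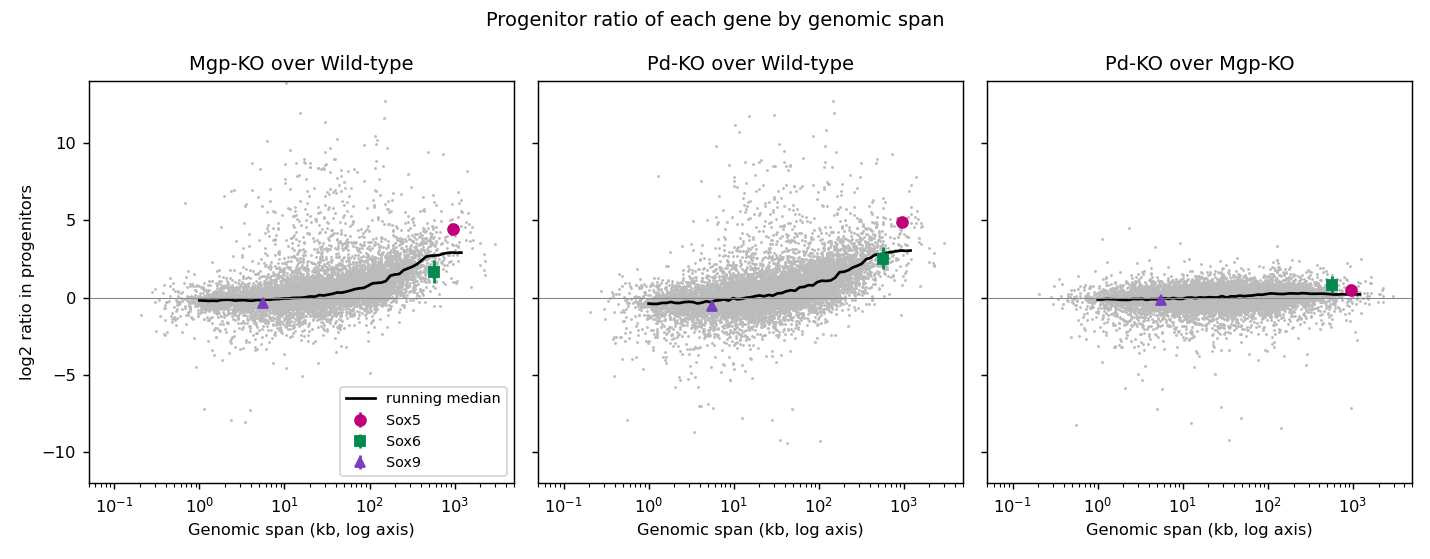
Log2 ratio of each gene in adipose progenitors against its genomic span in kb (log axis), for *Mgp*-KO over wild-type, *Pd*-KO over wild-type and *Pd*-KO over *Mgp*-KO. Grey points are genes with at least 100 UMIs over both libraries, the black line is the median of the 200 genes closest in span, and colored symbols are *Sox5*, *Sox6* and *Sox9* with 95% counting intervals. Both ratios over wild-type climb with span, and *Sox5* (4.43 and 4.90) lies above the line, whereas *Sox6* (1.67 and 2.51) lies below it.

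Transcripts of genes that overlap *Sox5* differed as well. *Sox5os4*, an antisense noncoding transcript, had 1 UMI in wild-type, 526 in *Mgp*-KO and 383 in *Pd*-KO progenitors, and *Sox5os2* had 0, 90 and 78. These transcripts were chosen after their values had been seen.

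*Sox5* was also above wild-type in the class where *Mgp* stood near the wild-type level in *Pd*-KO. Software version and genotype cannot be told apart in the ratios over wild-type, and whether *Sox5* follows *Mgp* was not tested. In *Pd*-KO smooth muscle cells and pericytes, where *Mgp* stood at 415 CPM against 364 CPM in wild-type, *Sox5* was higher than in wild-type by 4.20 (4.04 to 4.37), beside 4.90 (4.81 to 4.99) in progenitors, and it was higher in *Mgp*-KO, where *Mgp* had no UMI, by 2.58 (2.32 to 2.83). The 200 genes nearest in span had medians of 2.35 and 1.07 in these cells, with 12 and 20 of them above *Sox5*. *Pd*-KO exceeded *Mgp*-KO by 1.63 (1.41 to 1.85), beside a median of 0.95 for genes of like span. The makeup of the class differed between libraries: a UMI of the pericyte marker *Rgs5* was found in 73.1% of its wild-type cells, in 36.2% for *Mgp*-KO and in 92.1% for *Pd*-KO. *Rgs5* is itself a marker of the gate, and these shares are unthinned, at median depths of 6597, 3042 and 3994 UMIs. In cells with an *Rgs5* UMI, *Sox5* stood at 56.6, 632 and 1113 CPM, and *Pd*-KO exceeded *Mgp*-KO by 0.82 (0.55 to 1.10). Without an *Rgs5* UMI it stood at 65.5, 209 and 769 CPM, from 244, 95 and 31 cells. Epithelial markers in this class were highest in *Mgp*-KO too: the luminal list (5 markers, of which 0, 1 and 1 had no UMI) summed to 54.9, 92.6 and 8.33 CPM. The basal list (5 markers, of which 0, 0 and 4 had no UMI), which includes the contractile gene *Cnn1*, summed to 143, 432 and 54.7 CPM. The part of these cells in the *Sox5* values was not tested.

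*Sox6* ratios in progenitors rested on few UMIs. The progenitor ratio was 1.67 (0.93 to 2.44) in *Mgp*-KO and 2.51 (1.82 to 3.25) in *Pd*-KO over wild-type, beside medians of 2.69 and 2.81 for the 200 genes nearest in span, and with 75 UMIs over both libraries it did not pass the filter in the former. The interval in *Pd*-KO includes the span median. With every cell of at least 1 *Pdgfra* UMI these ratios were 0.22 (-0.20 to 0.64) and 1.11 (0.75 to 1.48), and with cells thinned to 2000 UMIs 1.03 (-0.36 to 2.66) and 1.33 (-0.14 to 3.0), so that 3 of these 4 intervals include 0. *Pd*-KO over *Mgp*-KO gave 0.84 (0.32 to 1.38) in progenitors beside a span median of 0.20, with 18 of 200 genes above it. In Schwann and neural crest cells the ratios were 2.71 (1.69 to 3.64) and 3.78 (3.25 to 4.33), and in luminal cells 2.49 (1.66 to 3.41) and 3.80 (2.89 to 4.77), beside span medians of 2.14 and 2.50 in luminal cells, the first of which lies within its interval. In smooth muscle cells and pericytes they were 1.65 (1.18 to 2.11) and 2.12 (1.83 to 2.41), beside span medians of 1.04 and 2.32. Wild-type luminal cells held *Sox6* at 2.23 CPM, below the 26.1 CPM of free RNA, and how far free RNA enters the luminal ratios was not tested. No class was lower in a knockout than in wild-type beyond counting error, and the intervals of 4 of 11 classes in *Mgp*-KO and 5 of 11 in *Pd*-KO included 0. Between the knockouts, which share a version, *Sox6* in *Pd*-KO was higher in luminal cells by 1.31 (0.67 to 1.92) and in Schwann and neural crest cells by 1.07 (0.24 to 2.02), but lower in endothelial cells (log2 ratio -1.0, -1.75 to -0.20).

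*Sox9* moved in different directions in different classes. In progenitors it was lower than in wild-type by 0.35 (-0.49 to -0.22) in *Mgp*-KO and by 0.52 (-0.66 to -0.37) in *Pd*-KO, beside medians of -0.18 and -0.34 for genes of like span, 143 and 131 of which lay above it. In luminal cells it was higher by 1.04 (0.95 to 1.13) in *Mgp*-KO and by 0.37 (0.21 to 0.53) in *Pd*-KO, beside medians of -0.17 and -0.18, and only 1 and 22 of the 200 genes nearest in span lay above it. *Pd*-KO luminal cells held less than *Mgp*-KO cells, with a log2 ratio of -0.66 (-0.82 to -0.51). Interstitial progenitors had ratios over wild-type of 0.24 (-0.07 to 0.55) in *Mgp*-KO and -0.49 (-0.81 to -0.16) in *Pd*-KO, and committed preadipocytes of -0.22 (-0.46 to 0.01) and 0.34 (0.10 to 0.58).

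Summed over all cells, *Sox9* gave another order than in progenitors. The whole libraries stood at 24.6, 42.8 and 14.1 CPM, so that *Mgp*-KO was higher than wild-type by 0.80 (0.73 to 0.86) although its progenitors were lower by 0.35. The share of luminal cells moved with this sum, at 2.83%, 4.24% and 1.21% of cells. Sex markers in progenitors differed between the libraries too. Progenitors in which *Xist* but nothing Y-linked was detected numbered 2604, 6616 and 2237. Those in which Y-linked genes but not *Xist* were detected numbered 2861, 1729 and 2910. The part of sex in the luminal share and in the summed *Sox9* level was not tested. In smooth muscle cells and pericytes the *Sox9* ratio of *Mgp*-KO over wild-type was 2.48 (1.44 to 3.44) from 14 and 29 UMIs, and 3.36 (1.86 to 5.04) in cells of this class without an *Rgs5* UMI. The basal and luminal marker lists were highest in the *Mgp*-KO cells of this class, and their part in the *Sox9* ratio was not tested.

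**Figure D4:**
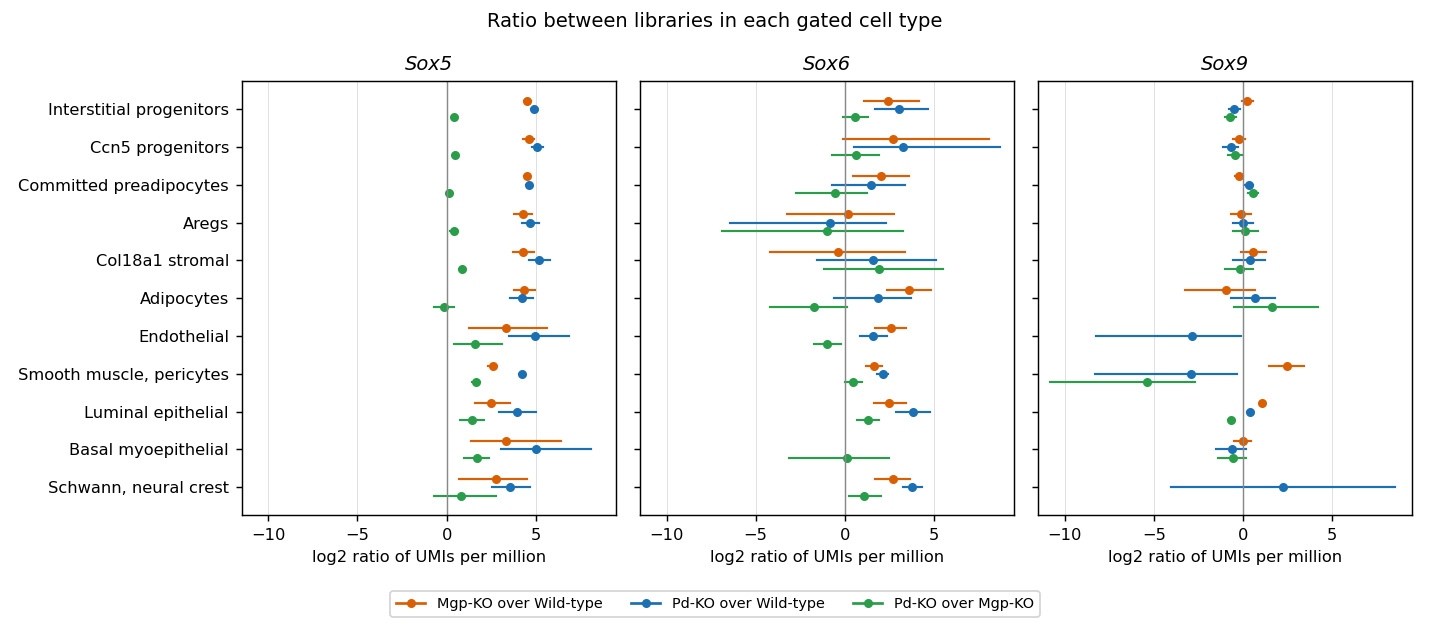
Log2 ratio of the level of *Sox5*, *Sox6* and *Sox9* in each gated cell type for *Mgp*-KO over wild-type (orange), *Pd*-KO over wild-type (blue) and *Pd*-KO over *Mgp*-KO (green), with exact 95% counting intervals, for classes with a UMI in both libraries. All *Sox5* ratios over wild-type lie between 2.51 and 5.16, *Sox6* ratios over wild-type are above 0 wherever the interval excludes it, and *Sox9* ratios lie on both sides of 0.

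Co-detection asked whether single cells carry several members of the trio. After thinning, no pair had an observed to expected ratio in progenitors whose interval excluded 1. *Sox5* and *Sox9* were found together in 3, 50 and 42 progenitors in library order, where 3.43, 46.4 and 34.5 would be expected from their separate shares. The ratios of observed to expected were 0.87 (0.18 to 2.55), 1.08 (0.80 to 1.42) and 1.22 (0.88 to 1.64). *Sox5* and *Sox6* were found together in 0, 6 and 5 progenitors, with 0.11, 4.24 and 4.01 expected. *Sox6* and *Sox9* were found together in 0, 0 and 1. Without thinning, which leaves more cells with a UMI, the *Sox5* and *Sox9* ratios were 1.29 (1.05 to 1.55), 1.15 (1.01 to 1.30) and 1.16 (1.02 to 1.31), with intervals above 1. The part of cell depth in these ratios was not tested.

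All 3 members in the same unthinned cell were rare, with 7 of 10511 cells in wild-type, 18 of 12575 in *Mgp*-KO and 7 of 8819 in *Pd*-KO. Of these, 5, 8 and 1 had passed gates of 2 types, and 7 *Mgp*-KO cells were luminal. Progenitors gave 0, 1 and 1. *Sox5* and *Sox6* met most often in smooth muscle cells and pericytes, in 8, 8 and 51 thinned cells, where 4.32, 7.79 and 42.1 were expected, so that the observed to expected ratios of 1.85 (0.80 to 3.65), 1.03 (0.44 to 2.02) and 1.21 (0.90 to 1.59) included 1. *Sox6* and *Sox9* met in 8 *Mgp*-KO luminal cells with 10.3 expected.

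Pooled over all cells, *Sox5* and *Sox9* were together less often than expected in *Mgp*-KO, at a ratio of 0.46 (0.35 to 0.60), with 0.61 (0.20 to 1.43) in wild-type and 0.92 (0.68 to 1.22) in *Pd*-KO. *Sox5* and *Sox6* were together more often than expected in wild-type, at 3.83 (1.75 to 7.27), and in *Pd*-KO, at 1.62 (1.27 to 2.04). In *Mgp*-KO the interval of their ratio of 1.11 (0.70 to 1.69) included 1. Within progenitors, smooth muscle cells and pericytes, and luminal cells, every thinned interval of a pair with an expected count above 0 included 1.

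Of 19 *Sox* genes listed, 14 had at least 100 UMIs over the cells kept, the 3 members and 11 others. In progenitors 8 of the 11 passed the filter in each ratio over wild-type. In *Mgp*-KO 0 of these 8 were at least 2-fold higher and 4 at least 2-fold lower (*Sox8*, *Sox11*, *Sox17* and *Sox18*), where 17.7% and 3.37% of all genes were. In *Pd*-KO 1 was higher (*Sox13*) and 3 were lower (*Sox8*, *Sox11* and *Sox17*), where 20.6% and 5.98% of all genes were. In *Pd*-KO over *Mgp*-KO 6 passed and 0 were called in either direction. Their median log2 ratios over wild-type were -0.78 and -0.42, beside 0.15 and 0.18 over all genes and -0.15 and -0.26 over genes under 10 kb, a span that the 4 lower genes share. *Sox13*, the remaining SoxD gene, spans 42.1 kb and stood at 3.91, 6.56 and 10.4 CPM in progenitors, with ratios over wild-type of 0.75 and 1.41. *Sox8*, a SoxE gene like *Sox9*, stood at 2.69, 1.24 and 1.30 CPM, with ratios of -1.12 and -1.05. *Sox10*, the SoxE gene of neural crest and glia, was highest in the class where *Sox6* was highest, at 336, 264 and 466 CPM in Schwann and neural crest cells. The endothelial genes *Sox17* and *Sox18* were highest in endothelial cells, at 227, 300 and 195 CPM and 234, 259 and 523 CPM. Endothelial cells made 6.96%, 1.70% and 7.50% of the cells, and the part of this in the progenitor ratios of both genes was not tested.

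Genes of cartilage were described as a list in progenitors. Of 26 chondrogenic genes, 10 passed the filter in each ratio over wild-type and 9 in *Pd*-KO over *Mgp*-KO. In *Mgp*-KO 4 of 10 were at least 2-fold higher (*Wwp2*, *Prg4*, *Runx2* and *Col9a3*) and 1 lower (*Fgfr3*), where 17.7% and 3.37% of all genes were. In *Pd*-KO 2 were higher (*Wwp2* and *Col9a3*) and 1 lower (*Fgfr3*), where 20.6% and 5.98% of all genes were, and in *Pd*-KO over *Mgp*-KO 0 were higher and 1 lower (*Runx2*, by a log2 ratio of -1.23), where 2.61% and 4.41% of all genes were. *Runx2* (319 kb) and *Wwp2* (122 kb) are long genes, in span ranges whose medians were 2.64 and 1.13 in *Mgp*-KO over wild-type. Median log2 ratios were 0.37 and 0.12, beside 0.15 and 0.18 over all genes. *Pth1r*, the parathyroid hormone receptor, was the highest of the list, at 60.6, 61.5 and 62.6 CPM. *Runx2*, a factor of bone and hypertrophic cartilage, stood at 9.36, 25 and 10.7 CPM, *Wwp2*, a ubiquitin ligase, at 6.86, 15.2 and 18.7 CPM, *Prg4*, which encodes lubricin, at 5.83, 14.7 and 7.94 CPM, and *Col11a1*, a collagen of cartilage fibrils, at 3.87, 3.40 and 2.25 CPM. The direct SOX trio targets *Col2a1* and *Acan* had 9, 4 and 4 UMIs and 13, 2 and 7 UMIs in all progenitors of the libraries, so neither passed the filter, while *Sox5* had 1015, 15587 and 18015 UMIs in the same cells. *Acan* was highest in smooth muscle cells and pericytes, the class where *Sox5* was highest, at 34.8, 45.4 and 48.2 CPM.

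The genes with the pattern most like each member were found from log2(CPM + 1) over 9 classes in 3 libraries, or 27 points, each gene centred within its library. The classes were the named progenitor classes, the progenitors outside them, endothelial cells, smooth muscle cells and pericytes, and luminal cells. Schwann and neural crest cells, where *Sox6* was highest, were too few to be included. These points share libraries and depth, and the correlations are descriptions over 13557 genes. For *Sox5* the highest Pearson r belonged to *Sept8* (0.94), *Rab11fip2* (0.93), *Cacnb4* (0.93), *Pde3a* (0.93) and *Zfhx3* (0.92). For *Sox6* it belonged to *Ppm1l* (0.96), *Gm4876* (0.96), *Lama5* (0.96), *Nrarp* (0.95) and *Ndufb7* (0.95), and for *Sox9* to *Prlr* (0.94), *Pak1* (0.92), *Eya2* (0.92), *Anxa4* (0.91) and *Homer2* (0.91). *Prlr* encodes the prolactin receptor of the mammary epithelium, the class where *Sox9* was highest. Between the members r was -0.07 for *Sox5* and *Sox6*, -0.20 for *Sox5* and *Sox9* and -0.02 for *Sox6* and *Sox9*.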

How the data were processed

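The values deposited by the authors are UMI counts from 10x Genomics 3′ v3 libraries, with all barcodes and no normalization, in 1 library per genotype. Their notes name Cell Ranger 6.1.1 and GRCm39, their methods mm10, and the file headers Cell Ranger 4 for wild-type and 7.1.0 for both knockouts. Their methods state default parameters for 6.1.1. Defaults on intronic reads differ between Cell Ranger 4 and 7.1.0, and the setting behind each file is not given in the sources used here. Library totals and depths are in the text, and replicate labels gave 1 sample per group.

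Barcodes with at least 2000 UMIs and at most 10% mitochondrial UMIs were kept. A cell passed a gate with a UMI of at least 3 markers and a mean marker score (natural log of 1 plus counts per 10000) of at least 1, or 2 for progenitors. Score limits were set after marker distributions had been seen and without use of the members' values. Progenitor classes took the highest score over its limit (1 for interstitial progenitors, 1.2 for committed preadipocytes and 0.8 for the others). No doublet caller was run, and cells passing gates of 2 types were left out of the classes, with exceptions. Cells passing the basal and the smooth muscle gate were kept as basal cells. Those passing the adipocyte and the progenitor gate were kept as adipocytes. Levels are summed UMIs in 1000000 (CPM) with Poisson intervals, shares have Clopper-Pearson intervals, and intervals of log2 ratios are conditional binomial, all exact and at 95%. A count of 0 was given the limit of 3 counts. All-gene ratios used genes with at least 100 UMIs over both libraries, 0.5 counts added, and a 2-fold limit. Genomic spans came from GENCODE M21, which held 99.8% of the genes. Genes of like pattern had at least 300 UMIs, over classes of at least 100 cells in each library.

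Named were the members in every class, other *Sox* genes with at least 100 UMIs, the chondrogenic list by counts and its 5 highest genes, and the 5 genes most like each member. The members, lists and gates were chosen with earlier results of these data known. Python 3.11.15, NumPy 2.4.6, pandas 2.3.3 and SciPy 1.17.1 were used, and the steps were tested on simulated data. Alternatives were other depth and mitochondrial limits, scaling, cell weighting, thinning, gating, sex of the cell and correction for span.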

Additional observations from a re-analysis of the deposited data

Results flagged for a closer look

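Some ratios had intervals on opposite sides of 0 in different classes of the same comparison. With 1 library per genotype, the difference between classes was not tested in any of these cases.

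*Sox6* in *Pd*-KO over *Mgp*-KO was higher in luminal epithelial cells (log2 ratio 1.31) and in smooth muscle cells and pericytes (0.47), and lower in endothelial cells (-1.0). The 200 genes nearest in span had a median of 0.53 in luminal cells, with 6 above *Sox6*. In smooth muscle cells and pericytes the median was 0.97, with 165 above *Sox6*. In that class the *Sox6* ratio was -0.02 (-0.70 to 0.72) in cells with an *Rgs5* UMI. Without an *Rgs5* UMI it was 2.28 (1.61 to 2.97), from 31 *Pd*-KO and 95 *Mgp*-KO cells. *Sox9* in *Pd*-KO over wild-type was higher in committed preadipocytes (0.34) and luminal cells (0.37), and lower in interstitial progenitors (-0.49), *Ccn5* progenitors (-0.69), endothelial cells (-2.87) and smooth muscle cells and pericytes (-2.94), the last 2 with 1 UMI each in *Pd*-KO. *Sox9* in *Pd*-KO over *Mgp*-KO was higher in committed preadipocytes (0.56), and lower in interstitial progenitors (-0.73), *Ccn5* progenitors (-0.43), luminal cells (-0.66) and smooth muscle cells and pericytes (-5.42).

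Barcodes outside the classes also carried members above the wild-type level. *Sox5* stood at 123 CPM in *Mgp*-KO and 292 CPM in *Pd*-KO barcodes with 10 to 100 UMIs, against 11.3 CPM in wild-type, and *Sox9* at 54.4 CPM in *Mgp*-KO against 20.0 CPM. In cells that passed no gate, *Sox5* stood at 169 CPM in *Mgp*-KO and 725 CPM in *Pd*-KO, against 12.0 CPM in wild-type. The ungated *Pd*-KO cells also held the pericyte genes *Kcnj8* (213 CPM), *Abcc9* (332 CPM) and *Notch3* (193 CPM) above the level in all *Pd*-KO cells (58.8, 63.8 and 45.8 CPM), whereas the contractile genes *Acta2* (114 against 185 CPM) and *Tagln* (26.7 against 132 CPM) were lower and the erythroid gene *Hbb-bs* was higher (7804 against 196 CPM). In wild-type too, ungated cells exceeded all cells in *Kcnj8* (89.7 against 13.9 CPM), *Abcc9* and *Hbb-bs*, but not in *Notch3*. Ungated *Mgp*-KO cells exceeded all cells in *Abcc9* (117 against 31.2 CPM), *Notch3* and *Hbb-bs*, and only slightly in *Kcnj8* (45.5 against 41.7 CPM). The part of pericytes in the ungated *Sox5* levels was not tested. All these genes were chosen after their values had been seen.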

How the results depend on the processing

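No paired analysis was possible because each genotype has 1 library. A log2 ratio was taken as moved when it left the counting interval of the value reported, which for *Sox5* is narrow. Of 99 progenitor ratios recomputed, 61 stayed within it, 35 moved and 3 changed sign. *Sox5* stayed higher in both knockouts than in wild-type under all 11 alternatives.

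Less the median of the 200 genes nearest in span, *Sox6* changed sign to -1.02 in *Mgp*-KO and -0.30 in *Pd*-KO over wild-type, *Sox5* fell to 1.53, 1.88 and 0.26 (*Mgp*-KO over wild-type, *Pd*-KO over wild-type, *Pd*-KO over *Mgp*-KO), and *Sox9* became -0.18 and -0.18 over wild-type. In cells with *Xist* but no Y-linked UMI, *Sox6* in *Pd*-KO over *Mgp*-KO changed sign to -0.23 and was 2.48 in *Mgp*-KO over wild-type, *Sox5* was 4.66, 4.77 and 0.11, and *Sox9* was -0.37 in *Pd*-KO over wild-type. In cells with a Y-linked but no *Xist* UMI, *Sox5* was 5.05 in *Pd*-KO over wild-type and 0.58 in *Pd*-KO over *Mgp*-KO, and *Sox9* -0.33 in the latter. With every cell of at least 1 *Pdgfra* UMI, *Sox6* was 0.22 (-0.20 to 0.64) and 1.11 over wild-type, and *Sox9* -0.72 in *Pd*-KO over wild-type and -0.44 over *Mgp*-KO. With cells thinned to 2000 UMIs, *Sox5* was 4.21, 4.71 and 0.50, *Sox9* -0.56 and -0.66 over wild-type, and *Sox6* 1.33 in *Pd*-KO over wild-type and 0.30 over *Mgp*-KO. Scaled by the median ratio of genes, which shifts ratios over wild-type by 0.15 and 0.18, *Sox5* was 4.29, 4.72 and 0.43 and *Sox9* -0.50 and -0.69. As a mean of per-cell CPM, *Sox5* was 4.26, 4.79 and 0.53. From 5000 UMIs, *Sox5* was 4.56 in *Mgp*-KO over wild-type and 0.35 in *Pd*-KO over *Mgp*-KO, and without the 5% of cells with most UMIs the latter was 0.42. The cause of these moves was not tested.

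Unthinned, the shares of progenitors with a *Sox5* UMI were 11%, 48.5% and 60.2% in wild-type, *Mgp*-KO and *Pd*-KO, with a *Sox6* UMI 0.289%, 0.422% and 0.754%, and with a *Sox9* UMI 10.2%, 4.08% and 5.30%, as more UMIs per cell give more detections. With every cell of at least 1 *Pdgfra* UMI the thinned shares were 26.6% and 32.7% for *Sox5* in *Mgp*-KO and *Pd*-KO, and 0.221% and 0.392% for *Sox6* in wild-type and *Pd*-KO. Without thinning, the 9 co-detection ratios stayed within their thinned intervals, which were wide where few cells were expected. The *Sox5* and *Sox9* interval included 1 after thinning and lay above 1 without it, in every library.

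With no filter on low counts, genes at least 2-fold higher and lower numbered 7490 and 2338 in *Mgp*-KO over wild-type (2507 and 477 with the filter), 7621 and 2293 in *Pd*-KO over wild-type (2888 and 838), and 2504 and 3322 in *Pd*-KO over *Mgp*-KO (366 and 619).

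Depth limits *Sox6* most, with 23 to 78 UMIs in the progenitors of a library. Intervals of levels and ratios cover counting error and not the spread between cells. No interval covers the spread between mice, and the single libraries give no estimate of that spread.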
